A study of Zea mays with 9 samples.

Results

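The 6 phytochrome genes of maize were followed across plants with 0, 1 and 2 P1-ww714 alleles. They were taken by identifier, with earlier results of these data known: PhyB1 (GRMZM2G124532), phyB2 (GRMZM2G092174), phyA1 (GRMZM2G157727), phyA2 (GRMZM2G181028), phyC1 (GRMZM2G057935) and phyC2 (GRMZM2G129889). All 6 were present among the 39656 gene identifiers counted, and all 6 passed the filter on low counts, which left 22544 genes tested. RNA was sequenced from seedlings aged 14 days and grown in a chamber with daily light and dark, of B73 (0 alleles), of the heterozygote P1-ww714/B73 (1 allele) and of P1-ww714 (2 alleles), with 3 libraries per genotype. B73 is an inbred line, the one whose genome serves as the maize reference. The p1 gene on chromosome 1 encodes a MYB regulator of red pigment and has P1-ww714 as 1 of its alleles. The label P1-ww714 is read here as homozygous, which it does not itself state. The labels do not name the line that carries it, so the allele and any other difference of that line from B73 cannot be told apart. As background not found in the labels, a stretch of chromosome 1 beside this allele is duplicated in tandem. B73, P1-ww714/B73 and P1-ww714 then hold 2, 3 and 4 doses of the genes in it. PhyB1 lies in this segment, and the other 5 phytochrome genes are taken as unduplicated. The question was how PhyB1 transcript follows its dose and whether the unduplicated paralogs change when PhyB1 does.

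Phytochromes are red and far-red light receptors made of a protein joined to a bilin chromophore. Red light turns them into an active form that enters the nucleus, binds phytochrome interacting factors and shifts the seedling towards growth in light. Phytochrome A acts mainly in far-red light and at low light, phytochrome B is the main receptor of red light and of shade, and phytochrome C works largely together with phytochrome B in grasses. Maize carries each of the 3 types as a pair of copies kept from an ancient doubling of its genome.

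The reference table placed PhyB1 on chromosome 1, phyB2 on chromosome 9 and phyA2 on chromosome 5. It pairs GRMZM2G129889 with 2 neighbouring loci of chromosome 5, 1 named PHYC and 1 named Spo11-1, a meiosis gene, so the counts called phyC2 may hold reads of both. The identifiers of phyA1 and phyC1 were not matched by it. Their names here are those in common use, and their positions were not checked. The sources used here do not say how reads shared between similar genes were counted, so values within a pair of copies carry that uncertainty.

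The 9 libraries held between 9486044 and 16189684 counts each. The gene p1 had 1, 0 and 1 counts in B73, 2, 1 and 1 in P1-ww714/B73 and 4, 4 and 11 in P1-ww714, too few to check the labels. The light-harvesting gene cab-m9 (GRMZM2G155216), abundant in green tissue, stood at 1445 to 3119 CPM (counts scaled to library size, here by the trimmed mean of M-values, TMM) in the 9 libraries. P1-ww714/B73 replicate 1 stood apart, with a mean correlation across genes of 0.965 with the other libraries against 0.974 to 0.982 for the rest. Several values for the heterozygote are therefore also given without this library. Whether the replicates of a genotype were different plants is not stated in the labels, so each p-value reflects spread between samples that may be technical.

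PhyB1 transcript rose with the number of copies. PhyB1 stood at 59.1, 68.3 and 72.0 CPM in the B73 libraries, at 108, 102 and 99.6 in P1-ww714/B73 and at 135, 136 and 140.0 in P1-ww714. No library of any genotype overlapped with another genotype. The means were 66.5 ± 6.67, 103 ± 4.46 and 137 ± 2.75 CPM (SD, n = 3 each), so the spread between libraries was widest in B73. Divided by the doses, these means came to 33.2 ± 3.34 CPM per dose in B73, 34.5 ± 1.49 in P1-ww714/B73 and 34.2 ± 0.686 in P1-ww714. The level per dose thus differed between genotypes by less than the SD in B73. In bulk seedlings, a change in the number of cells that express a gene and a change in the RNA per cell cannot be told apart.

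Mean PhyB1 was 37.0 CPM higher in P1-ww714/B73 than in B73, and 33.4 CPM higher in P1-ww714 than in P1-ww714/B73. The heterozygote lay 52.5% of the way to P1-ww714 on the linear scale, counted from B73. On the log2 scale its PhyB1 level minus the mean of both parents was 0.12 with a standard error of 0.09 and a 95% interval of -0.07 to 0.31. Equal steps in CPM per dose would put it at 0.08, which this interval holds. Without P1-ww714/B73 replicate 1 the difference was 0.08, and in this comparison 1.04% of all tested genes had an unadjusted p under 0.05.

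In the fit across all genes, PhyB1 rose 2.06-fold in P1-ww714 over B73 (95% interval 1.77 to 2.40), with an edgeR quasi-likelihood adjusted p of 0.000567 after Benjamini-Hochberg adjustment. It was the 1 phytochrome gene of 6 past the threshold in that comparison, in which 0.776% of all tested genes were called (0.652% higher and 0.124% lower). Of all tested genes, 7.13% had an unadjusted p under 0.05. The straight line over 0, 1 and 2 alleles rose by 0.52 on the log2 scale per allele (standard error 0.05, adjusted p = 0.000389), where 0.861% of genes were called (0.701% higher and 0.16% lower). PhyB1 was again the 1 of 6 called, and 7.89% of genes had an unadjusted p under 0.05. In P1-ww714/B73 over B73 the PhyB1 level was 1.56-fold (95% interval 1.34 to 1.82) with an edgeR adjusted p of 0.0516, and did not pass, in a comparison with 0.111% of genes called and 2.59% at an unadjusted p under 0.05. PhyB1 was the 1 of 6 without overlap between these genotypes, against 3.47% of genes wholly higher and 3.37% wholly lower. It passed in DESeq2 (adjusted p = 3.66e-06) and without an expression filter (0.0449), and over all alternatives the adjusted p ran from 3.66e-06 to 0.255. Without P1-ww714/B73 replicate 1 the PhyB1 log2 fold over B73 was 0.605 (edgeR adjusted p = 0.108), against 0.639 with all libraries. That of P1-ww714 over P1-ww714/B73 was then 0.438, against 0.404. In P1-ww714 over P1-ww714/B73 the level was 1.32-fold (95% interval 1.14 to 1.54, edgeR adjusted p = 0.941). The intervals held the dose ratios of 2, 1.5 and 1.33 in these 3 comparisons. In P1-ww714 over P1-ww714/B73 edgeR called 0 genes (0% of those tested), 680 (3.02%) were at an unadjusted p below 0.05, PhyB1 among them, and the DESeq2 calls came to 27, with PhyB1 at an adjusted p of 0.0760. PhyB1 was the 1 of 6 without overlap there too, against 3.73% of genes wholly higher and 3.05% wholly lower.

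**Figure D1:**
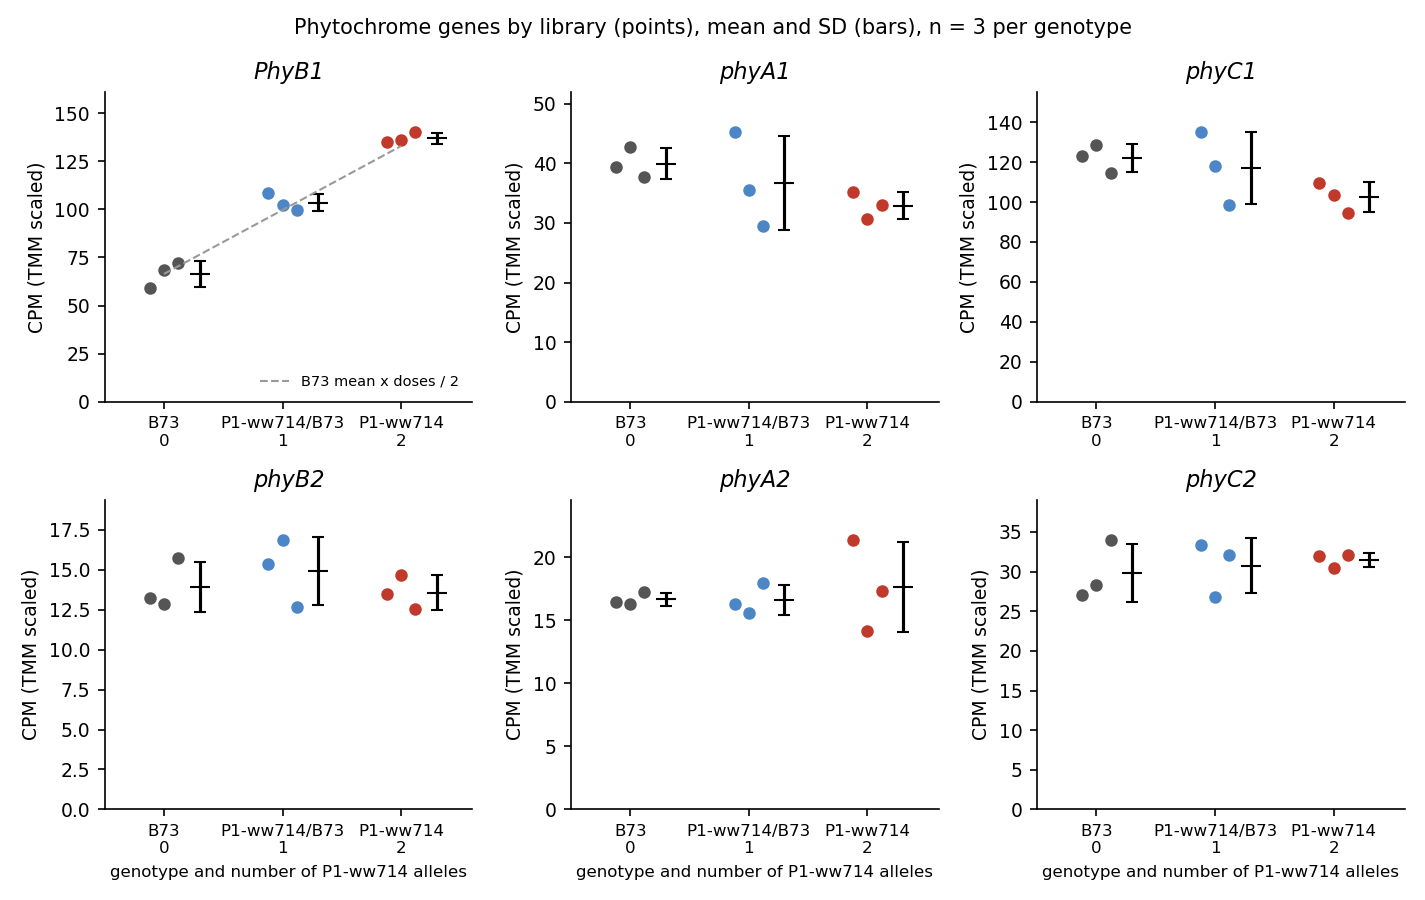
Level of each phytochrome gene in TMM-scaled CPM on a linear axis from 0, against genotype with its number of P1-ww714 alleles. Points are the 3 libraries of a genotype, bars the mean ± SD, and the dashed line in the PhyB1 panel is the B73 mean multiplied by the dose over 2. PhyB1 climbs along the line, with means of 66.5, 103 and 137 CPM, while the P1-ww714 and B73 libraries overlap for phyB2, phyA2 and phyC2 and are apart, lower in P1-ww714, for phyA1 and phyC1.

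The closest paralog, phyB2, which in maize shares the roles of phytochrome B with PhyB1, showed no detected change. Its level was 13.2, 12.9 and 15.7 CPM in B73, 15.3, 16.9 and 12.7 CPM in P1-ww714/B73 and 13.5, 14.7 and 12.5 CPM in P1-ww714. The libraries of the 3 genotypes overlapped throughout. The log2 fold of phyB2 in P1-ww714 over B73 was -0.04 with a standard error of 0.15 (edgeR adjusted p = 0.996), and its 95% interval ran from -22.4% to 22.0%. Changes of phyB2 within that interval are not excluded by these libraries, and the interval is not a limit of detection. Its value turned to 0.055 without B73 replicate 3 and to 0.015 without P1-ww714 replicate 3. In P1-ww714/B73 over B73 the log2 fold was 0.11 with a standard error of 0.15, and the interval ran from -14.1% to 35.2%. Without P1-ww714/B73 replicates 1, 2 and 3 in turn it was 0.096, 0.0093 and 0.21, and without B73 replicates 1, 2 and 3 in turn 0.069, 0.053 and 0.21.

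Among the phytochrome A genes, the receptors of far-red light, phyA1 was lower in every P1-ww714 library than in any B73 library without passing the test. Its level was 39.3, 42.8 and 37.7 CPM in B73, 45.2, 35.5 and 29.5 CPM in P1-ww714/B73 and 35.2, 30.6 and 33.0 CPM in P1-ww714. The heterozygote spread over the levels of both parents and beyond them. In P1-ww714 over B73 the log2 fold of phyA1 was -0.28 with a standard error of 0.14 and an interval of -0.60 to 0.04 (edgeR adjusted p = 0.781). Its copy phyA2 stood at 16.4, 16.3 and 17.2 CPM in B73, at 16.3, 15.6 and 17.9 CPM in P1-ww714/B73 and at 21.4, 14.2 and 17.3 CPM in P1-ww714. The P1-ww714 libraries of phyA2 lay on both sides of the other genotypes, and its log2 fold over B73 was 0.09 with a standard error of 0.15 (edgeR adjusted p = 0.989). Without P1-ww714 replicate 1 it was -0.077, and without P1-ww714 replicate 2 it was 0.21.

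In the phytochrome C pair, phyC1 was lower in every P1-ww714 library than in any B73 library without passing the test, and phyC2 overlapped. phyC1 stood at 123, 128 and 115 CPM in B73, at 135, 118 and 98.5 CPM in P1-ww714/B73 and at 110, 103 and 94.7 CPM in P1-ww714. The heterozygote overlapped with both parents. The log2 fold of phyC1 in P1-ww714 over B73 was -0.25 with a standard error of 0.12 and an interval of -0.52 to 0.02 (edgeR adjusted p = 0.757). phyC2 stood at 27.1, 28.3 and 34.0 CPM in B73, at 33.4, 26.9 and 32.1 CPM in P1-ww714/B73 and at 31.9, 30.5 and 32.1 CPM in P1-ww714. These groups overlapped, and the log2 fold of phyC2 in P1-ww714 over B73 was 0.08 with a standard error of 0.12 (edgeR adjusted p = 0.989). Without B73 replicates 1, 2 and 3 in turn it was 0.013, 0.047 and 0.19. A second identifier at the same loci, GRMZM2G129913, had 25 to 49 counts in the 9 libraries, with all 3 genotypes overlapping.

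Of the 5 paralogs, 2 (phyA1 and phyC1) had P1-ww714 libraries wholly below those of B73, and none wholly above. Of all tested genes, 6.42% lay wholly below and 6.86% wholly above in the same way. The median log2 fold of the 5 paralogs was -0.04, against -0.002 over all tested genes. In each of the 5 comparisons of genotypes and alleles the main edgeR fit called 0 of the 5, and 0 of the 5 had an unadjusted p under 0.05. Over all tested genes it called 0% to 0.861% in these comparisons, and 1.04% to 7.89% had an unadjusted p under 0.05. A count of 0 in 5 genes is near those shares and is not a result about the paralogs. DESeq2 called 0 of the 5 as well, against 2 to 363 of the 22544 tested genes. Its unadjusted p was under 0.05 for phyC1 in the slope over alleles and for no other paralog or comparison. Over the 15 alternatives the lowest adjusted p in P1-ww714 over B73 was 0.477 for phyA1 and 0.497 for phyC1. The unadjusted edgeR p of both fell under 0.05 in some of them. It was 0.0226 for phyA1 and 0.0355 for phyC1 with only the groups compared. Without P1-ww714/B73 replicate 1 it was 0.0261 and 0.0399, and without its replicate 3 it was 0.0380 and 0.0370. With the replicate block it was 0.0605 and 0.0308. The intervals of all 5 paralogs held 0 in P1-ww714 over B73 and in P1-ww714/B73 over B73, and all 5 excluded the dose ratio of the segment in both. Per allele, the line over 0, 1 and 2 alleles had a slope of -0.14 for phyA1 (95% interval -0.29 to 0.0093, edgeR adjusted p = 0.667) and of -0.13 for phyC1 (-0.26 to 0.0046, edgeR adjusted p = 0.649). For phyB2, phyA2 and phyC2 the slopes were -0.02, 0.04 and 0.04. Upper bounds in P1-ww714 over B73 ran from 1.02-fold for phyC1 to 1.34-fold for phyA2, against a dose ratio of 2. The 5 are taken as unduplicated, so excluding that ratio does not bear on whether they fell. Lower bounds ran from 0.662-fold for phyA1 and 0.695-fold for phyC1 to 0.881-fold for phyC2, and falls within them are not excluded.

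In P1-ww714/B73 over B73 the log2 fold was -0.12 for phyA1, -0.0055 for phyA2, -0.06 for phyC1 and 0.04 for phyC2, with standard errors of 0.12 to 0.15 (edgeR adjusted p = 0.99999 for each). Without P1-ww714/B73 replicate 1, whose phyA1 and phyC1 levels were the highest of all 9 libraries, these values were -0.29 for phyA1, 0.0054 for phyA2, -0.17 for phyC1 and -0.019 for phyC2. Without P1-ww714/B73 replicate 3, which had the lowest phyA1 level of all 9 libraries, phyA1 was at 0.0098 and phyC1 at 0.048, so leaving out either library moved both values, in opposite directions. In P1-ww714 over P1-ww714/B73 the 5 paralogs lay between -0.19 for phyC1 and 0.09 for phyA2, and that of phyA1 was -0.16. Without P1-ww714/B73 replicate 1 phyA1 was at 0.015 and phyC1 at -0.078, and without P1-ww714/B73 replicate 3 phyA1 was at -0.29 and phyC1 at -0.30. The value of phyB2 was -0.15, or -0.049 and -0.25 without P1-ww714/B73 replicates 2 and 3 in turn.

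**Figure D2:**
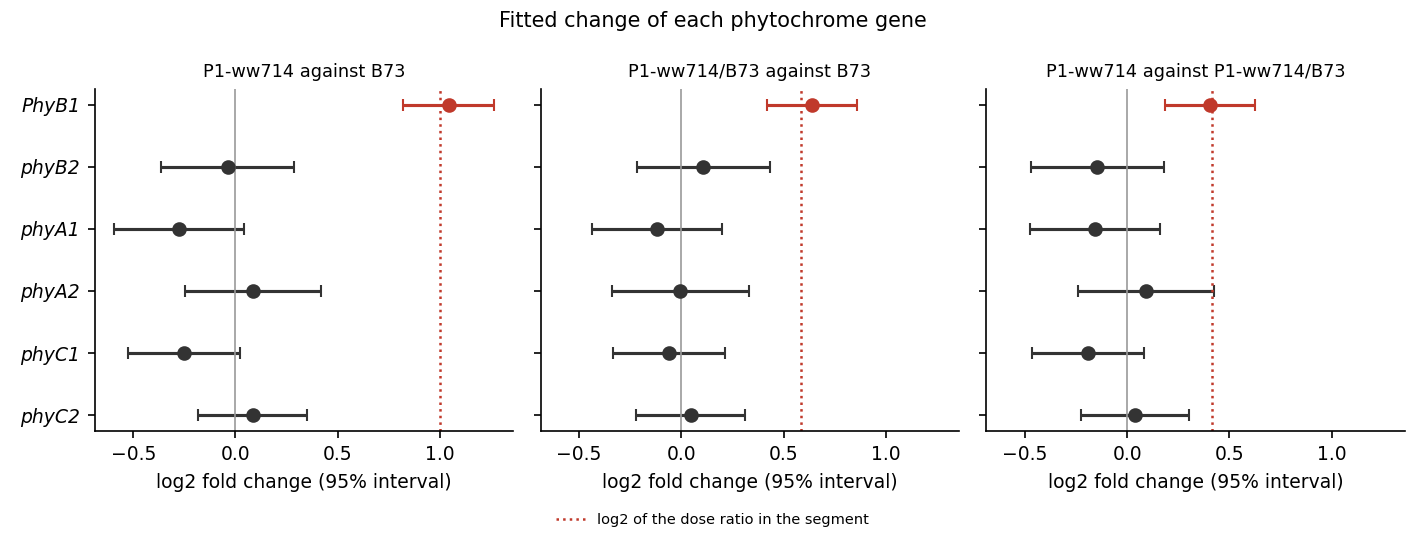
Fitted log2 fold change of each phytochrome gene with its 95% interval in 3 comparisons, with a grey line at 0 and a dotted line at the log2 dose ratio of the segment. PhyB1 lies close to the dotted line in each panel (1.04, 0.64 and 0.40), and the intervals of the other 5 genes hold 0 in each.

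The share of a pair's counts that falls on 1 copy does not depend on scaling between libraries, and is not corrected here for transcript length. PhyB1 held 81.7%, 84.2% and 82.1% of the PhyB1 plus phyB2 counts in B73, 87.6%, 85.9% and 88.7% in P1-ww714/B73 and 90.9%, 90.2% and 91.8% in P1-ww714. The 3 genotypes did not overlap, and the widest 95% Wilson interval of a single library was 79.4% to 84.5%, in B73 replicate 3. These intervals cover counting error only. The mean share was 82.6% ± 1.33 in B73, 87.4% ± 1.45 in P1-ww714/B73 and 91.0% ± 0.774 in P1-ww714 (SD, n = 3 each). With the B73 share as the start, a PhyB1 level in proportion to dose and a phyB2 level as in B73, the shares would be 87.7% at 3 doses and 90.5% at 4 doses, each within 1 SD of the observed mean. The share of phyA1 in its pair was 65.4% ± 3.05 in P1-ww714, against 70.5% ± 1.89 in B73, and that of phyC1 was 76.4% ± 1.54 in P1-ww714, against 80.3% ± 2.78 in B73. Every phyA1 share in P1-ww714 (62.2% to 68.3%) lay below those in B73 (68.6% to 72.4%), while the phyC1 shares overlapped (74.7% to 77.5% in P1-ww714 and 77.1% to 82.0% in B73). The nearest phyA1 libraries had overlapping Wilson intervals, 64.2% to 72.2% in P1-ww714 replicate 2 and 64.6% to 72.4% in B73 replicate 3. In P1-ww714/B73 the phyA1 shares ran from 62.1% to 73.5%, beyond both parents. For these shares no test was made.

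**Figure D3:**
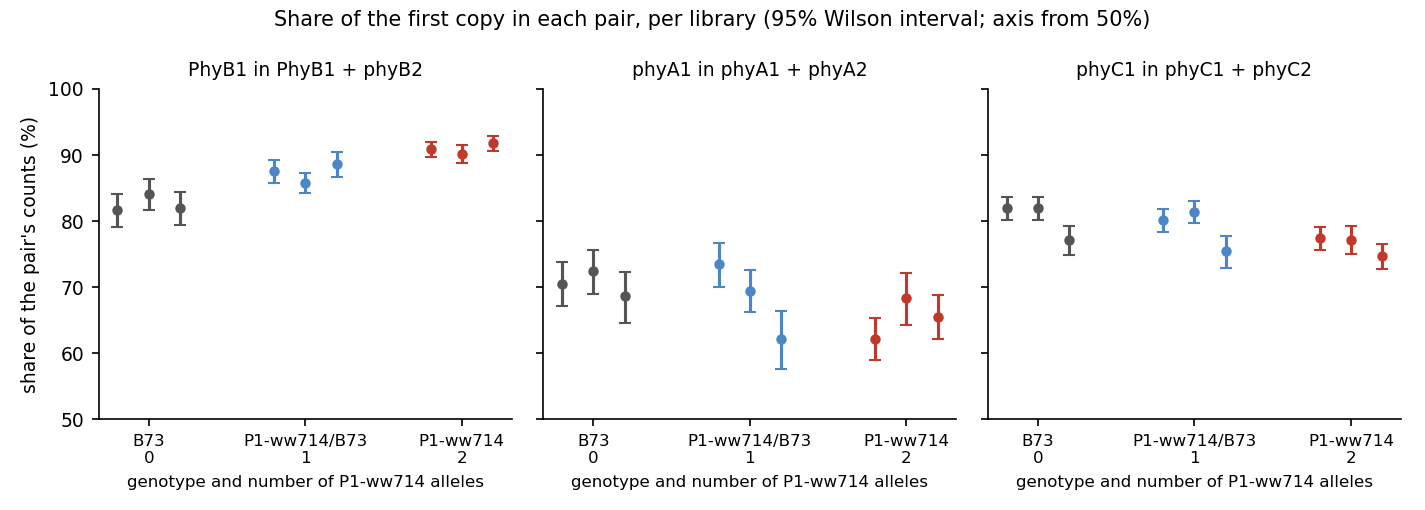
Share of the first copy in the counts of each pair (percent, axis from 50%), with its 95% Wilson interval, for each library against genotype with its number of P1-ww714 alleles. The PhyB1 share climbs in steps that do not overlap, with means of 82.6% in B73, 87.4% in P1-ww714/B73 and 91.0% in P1-ww714, and the phyA1 and phyC1 shares spread more within the heterozygote than within P1-ww714.

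Summed levels put the PhyB1 increase beside the rest of the family. Such sums weight each gene by its transcript length, which the sources used here do not give, and they are a description with no test. PhyB1 plus phyB2 came to 80.4 ± 7.75 CPM in B73, 118 ± 5.74 CPM in P1-ww714/B73 and 150 ± 2.13 CPM in P1-ww714 (SD, n = 3 each), which is 1.87-fold in P1-ww714 over B73. The other 5 genes together stood at 212, 193 and 189.6 CPM in P1-ww714, against 219, 229 and 219 CPM in B73. Their mean was lower by 24.2 CPM in P1-ww714 (198 ± 11.8 CPM) than in B73 (222 ± 5.46 CPM), a ratio of 0.891, with no overlap between libraries. This fall was not shared by all of them. Mean phyC1 was 122 CPM in B73 and 103 CPM in P1-ww714, and mean phyA1 was 39.9 and 32.9 CPM. The means of phyB2 were 13.9 and 13.6 CPM, while phyA2 (16.7 and 17.6 CPM) and phyC2 (29.8 and 31.5 CPM) were higher in P1-ww714. In the heterozygote the 5 genes came to 245, 213 and 191 CPM, which spans both parents. All 6 genes together reached 289 ± 9.59 CPM in B73, 319 ± 31.8 CPM in P1-ww714/B73 and 335 ± 9.93 CPM in P1-ww714, which is 1.16-fold in P1-ww714 over B73. PhyB1 made up 21.2% to 24.7% of this sum in B73, 30.7% to 34.3% in P1-ww714/B73 and 38.9% to 42.5% in P1-ww714. Without P1-ww714/B73 replicate 1 the heterozygote mean was 303 CPM for all 6 genes and 202 CPM for the 5.

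**Figure D4:**
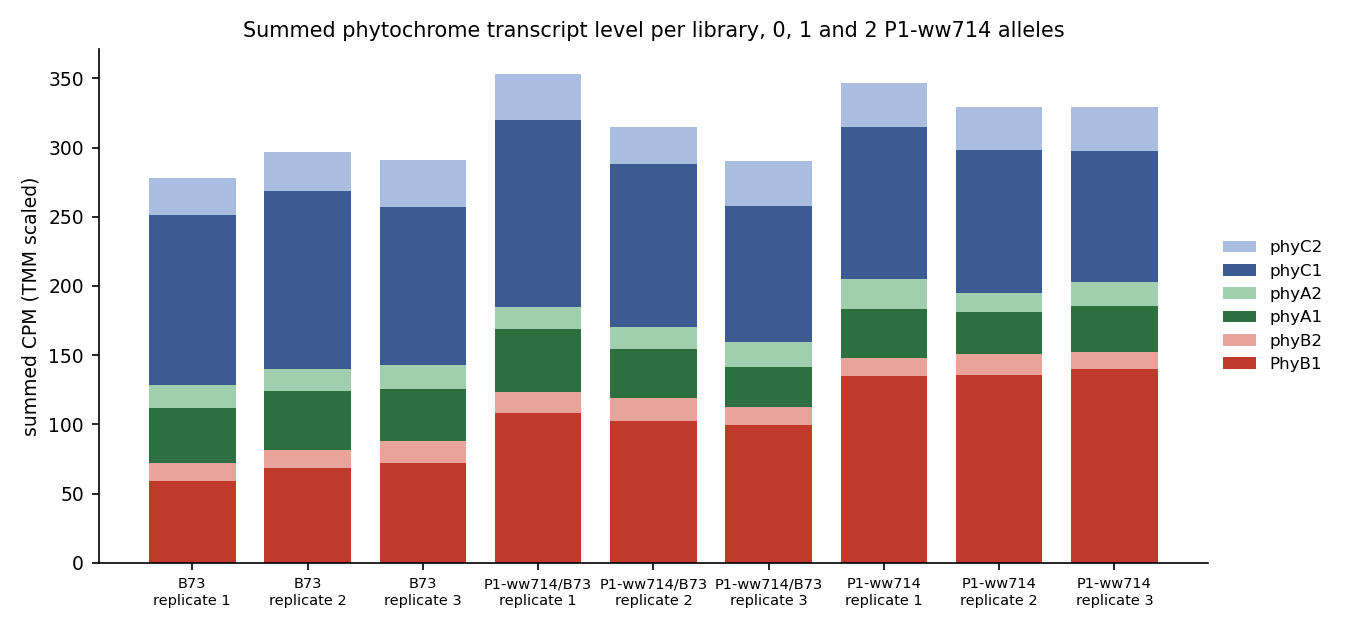
Stacked TMM-scaled CPM of the 6 phytochrome genes in each of the 9 libraries, from 0, 1 and 2 P1-ww714 alleles, not corrected for transcript length. The PhyB1 layer is 59.1 to 72.0 CPM deep in B73, 99.6 to 108 CPM in P1-ww714/B73 and 135 to 140.0 CPM in P1-ww714, and P1-ww714/B73 replicate 1 has the tallest bar, at 353 CPM.

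The 20 tested genes nearest to PhyB1 in the reference order, 10 on each side, give the setting of its change. In P1-ww714 over B73, 18 of the 20 lay above 0 and 15 were called higher and 1 lower by edgeR, against 0.652% and 0.124% of all tested genes. Their median log2 fold was 0.97 and that of PhyB1 1.04, with 7 neighbours above PhyB1. In P1-ww714/B73 over B73 their median was 0.50 and PhyB1 stood at 0.64. There 3 of the 20 neighbours were called, all higher, against 0.111% of all tested genes. Both comparisons share the B73 libraries. On 1 side, the next genes were GRMZM2G013639, GRMZM2G011483 and GRMZM2G056373, with log2 folds of 1.11, 0.88 and 1.21 in P1-ww714 over B73. On the other side, GRMZM2G033491 and GRMZM2G008490 were at 1.22 and 0.94. GRMZM2G329040, the third gene on that side, fell by 0.78 (edgeR adjusted p = 0.0153), with 90.9 CPM in P1-ww714, against 157 CPM in B73. The Polycomb gene mez3 (GRMZM2G043484), 5 places from PhyB1, was at 0.93.

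**Figure D5:**
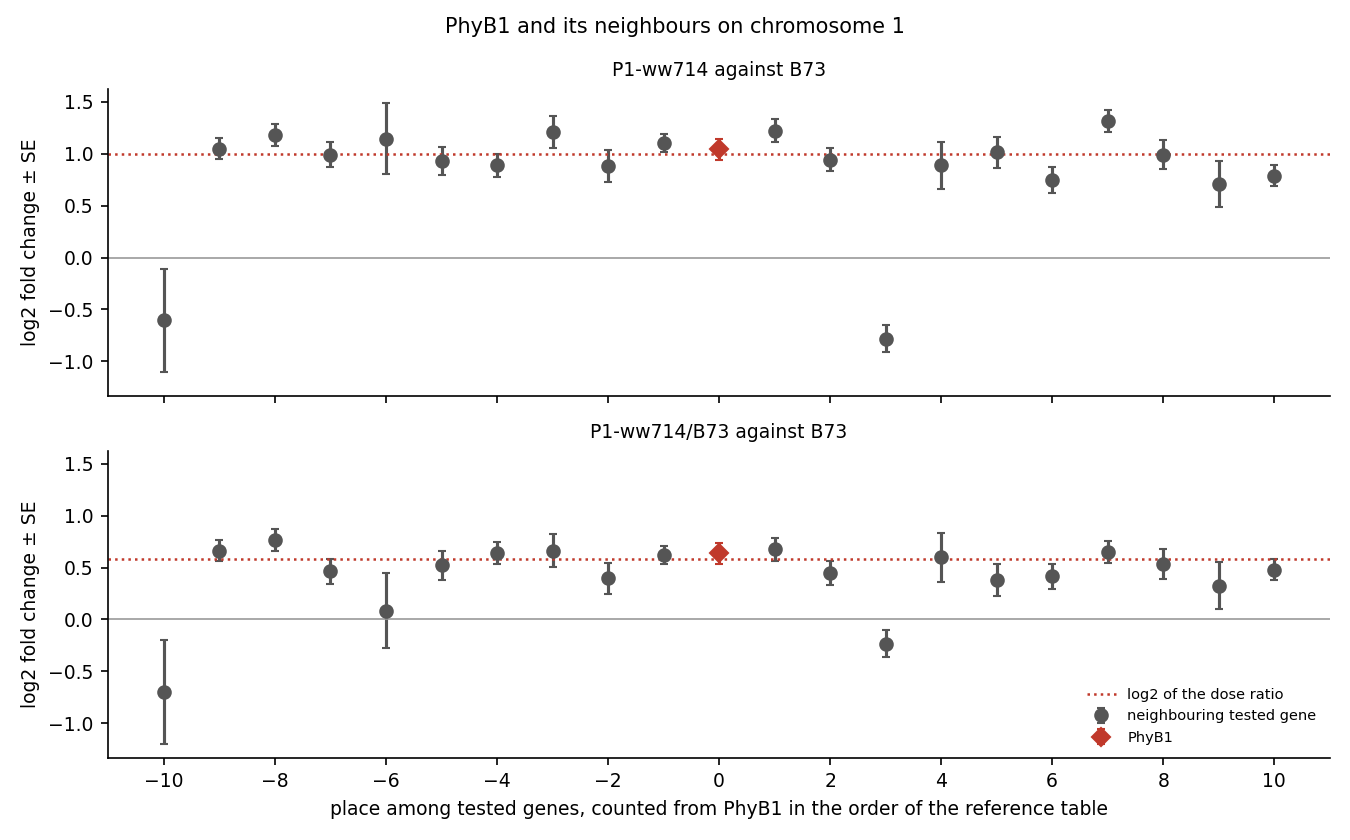
Log2 fold change ± standard error of PhyB1 (diamond) and of the 10 tested genes on each side (points), by place in the order of the reference table, with a dotted line at the log2 dose ratio. PhyB1 and most neighbours lie near 1 in P1-ww714 over B73 and near 0.58 in P1-ww714/B73 over B73, while GRMZM2G329040 is at -0.78 and -0.23.

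Likeness of profiles was measured as the root mean square difference of log2 CPM over the 9 libraries, each gene centred on its own mean. The 5 named genes nearest to PhyB1 were GLK17 (GRMZM2G006477, difference 0.10), a GARP-type regulator, bZIP52 (GRMZM2G174284, 0.12), mez3 (0.15), MSRB5.1 (GRMZM2G577677, 0.15), for a methionine sulfoxide reductase, and HINT (GRMZM2G018728, 0.15), which encodes a histidine triad protein. All 5 lie on chromosome 1 in the reference table. The median over the 22543 other tested genes was 0.48. Of the other phytochrome genes, phyC2 (0.40), phyA2 (0.44) and phyB2 (0.46) lay below that median, and phyC1 (0.55) and phyA1 (0.56) above it. For a gene with little change, this distance mostly reflects the change of PhyB1 itself. The 3 named genes nearest to phyB2 were ugu1 (GRMZM2G134903, 0.08), the splicing factor gene smu2 (GRMZM2G430745, 0.10) and bZIP68 (GRMZM2G157722, 0.10), on chromosomes 5, 10 and 4. Within the family, phyA1 and phyC1 were nearest to each other, at 0.08, and the next pair was phyA2 and phyC2 at 0.15. Of the 22543 other tested genes, 7 were nearer to phyA1 than phyC1 was, and 21 were nearer to phyC1 than phyA1 was.

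Other genes of light signalling were taken by name in 7 lists, which matched 26 genes, 22 of them tested. In P1-ww714 over B73 edgeR called 0 of the 22, with 4 at an unadjusted p under 0.05 (COL10, COL5, PIF5 and GT1), and DESeq2 called 1. Over all tested genes edgeR called 0.776%, with 7.13% at an unadjusted p under 0.05, and there were 311 DESeq2 calls. In P1-ww714/B73 over B73 edgeR and DESeq2 called 0 of the 22, and 0 had an unadjusted p under 0.05 in either tool. Over all tested genes edgeR called 0.111% there, with 2.59% at an unadjusted p under 0.05, and DESeq2 calls came to 73. In the slope over alleles edgeR called 0 of the 22, with 3 at an unadjusted p under 0.05. DESeq2 called the same 1 gene there. Over all tested genes the slope had 0.861% called and 7.89% at an unadjusted p under 0.05 in edgeR, and 363 DESeq2 calls. The phytochrome chromophore genes, which make the bilin that all phytochromes need, had 3 of 3 members tested and a median log2 fold of -0.03 in P1-ww714 over B73. The best expressed of them, the heme oxygenase gene HO1 (GRMZM2G101004), stood at 134 ± 10.8 CPM in P1-ww714 and 138 ± 14.6 CPM in B73 (SD, n = 3 each). The 2 phytochrome interacting factor genes, which encode the partners that active phytochrome binds, had a median of -0.17 but lay in opposite directions. PIF4 (GRMZM5G865967) was at -0.76 with low levels, 0.609 CPM in P1-ww714 and 1.05 CPM in B73 (edgeR adjusted p = 0.795). PIF5 (GRMZM2G165042) stood at 13.5, 16.1 and 17.7 CPM in P1-ww714, against 12.7, 10.3 and 12.5 CPM in B73. Its libraries did not overlap, as for the 6.86% of all tested genes that were wholly higher, and it did not pass the test (log2 fold 0.41, edgeR adjusted p = 0.620).

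The blue light receptor gene nph1 (GRMZM2G001457), the 1 match for other photoreceptors, stood at 137 ± 22.7 CPM in P1-ww714 and 169 ± 24.8 CPM in B73 (log2 fold -0.31, edgeR adjusted p = 0.893). The COP9 signalosome gene fus6 (GRMZM2G062210), the 1 match for repressors of light signalling, was at -0.06. For light-harvesting proteins, 6 of 7 genes lay above 0 with a median of 0.17, and cab-m9 was at 0.17 (edgeR adjusted p = 0.989). For shade and gibberellin genes 4 of 4 lay above 0 with a median of 0.20, led in level by a gene with the symbol GT1 (GRMZM2G421491), at 118 ± 76.6 CPM in P1-ww714 and 61.7 ± 23.1 CPM in B73. That symbol is shared by unlike genes, so its place in the list is uncertain. For the list headed activators, 4 of 6 matches were tested, with a median of -0.57 and 1 of the 4 above 0. COL8 (GRMZM2G114137), of the CONSTANS-like family, was at -0.15. Members of that family entered the list by symbol alone, and whether each acts as an activator was not checked. The 1 DESeq2 call was COL5 (GRMZM2G075562), of the same family, which was singled out after its values were seen. COL5 stood at 26.3, 26.5 and 12.5 CPM in P1-ww714, against 54.8, 63.3 and 46.1 CPM in B73, a log2 fold of -1.33 (edgeR adjusted p = 0.184, DESeq2 adjusted p = 0.00932). Its heterozygote libraries, at 60.2, 37.3 and 22.7 CPM, spread over the levels of both parents.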

How the data were processed

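RNA was extracted from seedlings with a plant RNA kit and made into libraries with Illumina protocols, per the labels' protocols. The deposited table holds raw counts per gene, and TopHat and HTSeq are named in the submitters' processing notes. For versions, genome build, annotation and strand setting: not given in the sources used here. Columns were mapped to samples by title. Names and gene order came from a RefSeq table for Zm-B73-REFERENCE-NAM-5.0, which matched 18775 identifiers (47.3%), 4 of the 6 phytochrome genes among them. No coordinates are given, since the builds may differ.

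Genes were kept by filterByExpr (minimum count 10). Counts were scaled by TMM and tested with the quasi-likelihood F test of edgeR 4.0.16 (limma 3.58.1, R 4.3.3), all 9 libraries in 1 fit, with Benjamini-Hochberg adjustment over all 22544 genes and a threshold of 0.05. The slope came from a fit of its own. Each standard error is the fitted log2 fold over the root of its F value, and intervals follow from it. Log2 CPM for profiles used a prior count of 2. The fit was also run on counts simulated from its own model of these data, which checks the code and not the spread between libraries.

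The members and lists were chosen with earlier results of these data known. Named genes were the 6 members, the 5 nearest profiles to PhyB1 and 3 to phyB2 with a name, the 3 nearest tested genes on each side of PhyB1, and of each list the called members or else the best expressed. Likeness between members, the expected share, PIF4 and COL5 were added after the data were seen. No replicate pair agreed within sampling noise (chi-square per gene of 6.35 or more). The settings varied were the tool (DESeq2 1.42.0), the size factors (RLE, TMM without chromosome 1, library totals for sums), the filter, a block for the replicate number, the groups in the fit and each library in turn.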

Additional observations from a re-analysis of the deposited data

How the results depend on the processing

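PhyB1 kept its direction under every alternative and its calls in P1-ww714 over B73 and in the slope. Of 438 values of the 6 genes under alternatives, 409 kept direction and side of the threshold, 2 gained a call and 27 changed sign, the last all for paralogs that were called in no setting. The calls gained were PhyB1 in P1-ww714/B73 over B73, at 0.64 with DESeq2 and 0.64 without a filter. Without a filter phyA2 was at 0.000731 in P1-ww714/B73 over B73, and with DESeq2 phyC2 was at -0.000498 against the middle of the parents. Leaving out single libraries, phyA1 ran from -0.29 to 0.015 in P1-ww714 over P1-ww714/B73, from -0.29 to 0.0098 in P1-ww714/B73 over B73 and from -0.15 to 0.15 against the middle. phyA2 ran from -0.077 to 0.21, from -0.071 to 0.22, from -0.064 to 0.040, from -0.11 to 0.033 and from -0.036 to 0.10 in P1-ww714 over B73, P1-ww714 over P1-ww714/B73, P1-ww714/B73 over B73, against the middle and in the slope. phyB2 ran from -0.10 to 0.055 in P1-ww714 over B73 and from -0.056 to 0.015 in the slope. phyC1 ran from -0.17 to 0.048 in P1-ww714/B73 over B73 and from -0.047 to 0.18 against the middle. phyC2 ran from -0.054 to 0.10 in P1-ww714 over P1-ww714/B73, from -0.023 to 0.15 in P1-ww714/B73 over B73 and from -0.061 to 0.095 against the middle.

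Genes called by DESeq2 were 311 in P1-ww714 over B73 (224 higher and 87 lower, against 147 and 28 of 175 in edgeR), 73 in P1-ww714/B73 over B73 (edgeR 25), 27 in P1-ww714 over P1-ww714/B73 (edgeR 0), 2 against the middle (edgeR 0) and 363 in the slope (edgeR 194). In P1-ww714 over B73 the 28 lower calls of edgeR became 84 with the replicate block, 47 without a filter, 46 with only the groups compared and 56 without P1-ww714/B73 replicate 1. They became 15 and 16 without P1-ww714 replicates 2 and 1, and 17 and 18 without B73 replicates 2 and 3. With only the groups compared, 0 were called in P1-ww714/B73 over B73. Without single libraries, 6 to 20 were called there (20 without P1-ww714/B73 replicate 1, 14 or fewer without any of the other 8), and 0 to 4 in P1-ww714 over P1-ww714/B73 (2 without P1-ww714 replicate 1, 4 when its replicate 3 was left out). The cause was not tested. With the replicate block 295 genes were called in the slope (193 higher and 102 lower, against 158 and 36 without it). The 9 same-numbered pairs of libraries had correlations of deviations from -0.123 to 0.498, 4 of them over 0.1. Differently numbered pairs ran from -0.35 to 0.253, and 5 of 9 libraries correlated best with their own number. This check does not settle whether the numbers pair the samples. The block changed no call of the 6 genes. Group means of the sums moved by less than 1 SD under every scaling, and the PhyB1 share does not depend on scaling. Leaving out 1 of 3 libraries cannot move a group mean by 1 SD, so no conclusion is drawn from that comparison. The widest such range was 303 to 334 CPM, for all 6 genes in P1-ww714/B73. With 3 libraries per genotype, changes of the paralogs within their intervals are not excluded, and these intervals are not limits of detection.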
